A study of Mus musculus with 12 samples.

Results

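The Pur family and the genes beside Purb on chromosome 11 were followed in mouse testis RNA: 10 genes, picked by symbol, of the 20718 genes in the expression table. They are the 3 Pur family genes (Pura, Purb and Purg) and 7 neighbours of Purb (H2afv, Ppia, Zmiz2, Ogdh, Ccm2, Myo1g and Tbrg4). The rule takes them by symbol alone, but the list was drawn up with earlier results of these data known. ICR mice (the labels write the strain as "IRC mouse") received lentivirus in the testes at 4 weeks of age, were raised for 5 weeks to 9 weeks of age, mated for 4 days, and kept for another 4 days before the testes were taken. For F0_5251KD, separate LV3-backbone viruses for 3 short hairpin RNAs (shRNAs) to the long non-coding RNA lncRNA5251 were mixed before injection. In F0_3NC the virus had LV3 with a negative-control shRNA. In F0_5251OV it had the LV5 backbone with full-length lncRNA5251, and in F0_5NC it was the empty LV5 vector. Each of the 4 groups had 3 libraries of whole testis, and all 12 came from injected testes. The sources used here do not name the testis cells that the virus reached.

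Pur proteins bind purine-rich single-stranded DNA and RNA through their PUR repeats. Pur-alpha (Pura) and Pur-beta (Purb) are known as repressors of smooth muscle and cardiac contractile genes, where they act with the Y-box protein Ybx1, and as parts of RNA transport granules moved by kinesin. Less is known of Pur-gamma (Purg). The neighbours have other roles. Ppia encodes cyclophilin A, a prolyl isomerase, and H2afv (H2az2 in RefSeq) encodes a variant of histone H2A. Zmiz2 is a coactivator of nuclear receptors such as the androgen receptor, Ogdh is a subunit of the oxoglutarate dehydrogenase complex of the citric acid cycle, and Tbrg4 acts on mitochondrial RNA. Ccm2 is a scaffold protein of endothelial cell junctions, and Myo1g is a myosin of blood cells.

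Purb is in this set because the knockdown sequences lie in its exon. The 3 sequences used against lncRNA5251 and the negative control are shown, 5′ to 3′. Capitals mark a sequence found in Purb over its whole length, which is 21 bases for each knockdown sequence.
KD 1: GCTGGGACTTAATGTCCTTCT
KD 2: GCATGGGCAATTCAAACAAAT
KD 3: GCTTATTATGCATCGTAAACC
3NC: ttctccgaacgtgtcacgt
In 141767 annotated mouse transcripts (GENCODE, GRCm38, which is mm10), each knockdown sequence was found in 1 gene, Purb, in the sense direction and in 0 genes in the antisense direction. The control of 19 bases was found in no gene in either direction. Purb is transcribed from the minus strand as a single exon of 8319 bases (chromosome 11, 6467599 to 6475917), of which 7316 bases (87.9%) are 3′ UTR. KD 1 lies at chr11:6468416-6468436, KD 3 at chr11:6468248-6468268 and KD 2 at chr11:6467969-6467989, all in that 3′ UTR. They end 817, 649 and 370 bases from the 3′ end of the transcript, and together span 468 bases (5.6% of it). No window of a transcript of the other 9 genes matched a knockdown sequence with fewer than 7 mismatches. An annotated antisense gene, Gm11973, overlaps the exon by 493 bases at its 5′ end (6475425 to 6475917), away from the knockdown sites, and a miRNA gene, Gm22123, lies inside the exon. Neither is in the table, and the library preparation as described does not keep the strand, so reads of either strand of this exon cannot be told apart in the Purb count. The sequence of full-length lncRNA5251 was not used here, so its overlap with Purb beyond these sites was not measured. Reads of the F0_5251OV insert that match the Purb exon could enter the Purb count.

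The libraries held 15431383 to 16355720 estimated counts, a ratio of 1.06. All 6 germ cell markers checked were present, as were all 4 Sertoli cell and all 4 Leydig cell markers, while 3 markers of T and NK cells summed to at most 0.91 CPM (counts scaled to the library total). Crisp1, a marker of the epididymis beside the testis, was at 0.32 to 5.83 CPM in F0_3NC and 0.06 to 0.13 CPM in F0_5251KD. With LV5 it was at 10.52 to 91.92 CPM in F0_5NC and 0.19 to 63.45 CPM in F0_5251OV, so the controls did not overlap, and its part in the comparisons was not tested. Of the other epididymis markers checked, Defb48 was at 0.0 to 0.12 CPM in all libraries and Lcn5 was not in the table. The difference thus rests on Crisp1 alone. Whether the 3 libraries of each group came from separate animals is not labelled, so p-values measure only the spread between these libraries. F0_3NC replicate 2 and F0_5251OV replicate 1 stood apart on the second principal component (scores of -36.7 and -38.5, against -4.8 to 25.4 in the other 10). The germ cell genes Ddx4, Sycp3 and Pgk2 had their 2 highest levels in these libraries (Ddx4 746.2 and 709.4 CPM, against 575.8 to 640.8 CPM). The spermatid gene Prm2 had its 2 lowest levels there (4780.6 and 4963.6 CPM, against 5079.8 to 6149.6 CPM), Tnp1 ranked 12 and 9 of 12 and Prm1 ranked 11 and 8. Whole testis was sequenced, so fewer cells of a type and less RNA per cell cannot be told apart.

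Levels between genes were compared as FPKM, which scales a count by transcript length and library total. Ppia had the highest level of the 10 genes (746.22 FPKM on average over the 12 libraries, above 99.7% of genes in the table). Zmiz2 (66.5 FPKM), Ogdh (38.42 FPKM) and Tbrg4 (21.08 FPKM) followed, each above the next in all 12 libraries. H2afv (11.84 FPKM) and Purb (9.1 FPKM) had overlapping ranges, with H2afv higher in 11 of 12 libraries. Ccm2 (5.84 FPKM) and Pura (4.92 FPKM) also overlapped, with Ccm2 higher in 10 libraries. Purg was at 1.43 to 1.92 FPKM and Myo1g at 0.04 to 0.16 FPKM, the latter from only 2 to 8 counts per library. Within the family, Purb was thus above Pura and Pura above Purg in every library. Purb took 51.7% to 64.8% of the summed FPKM of the family, Pura 26.1% to 38.1% and Purg 9.1% to 11.7%. Seen across libraries, Ogdh and Ppia varied least (highest over lowest FPKM 1.21 and 1.19), and among genes with more than 100 counts Ccm2 varied most (1.98).

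**Figure D1:**
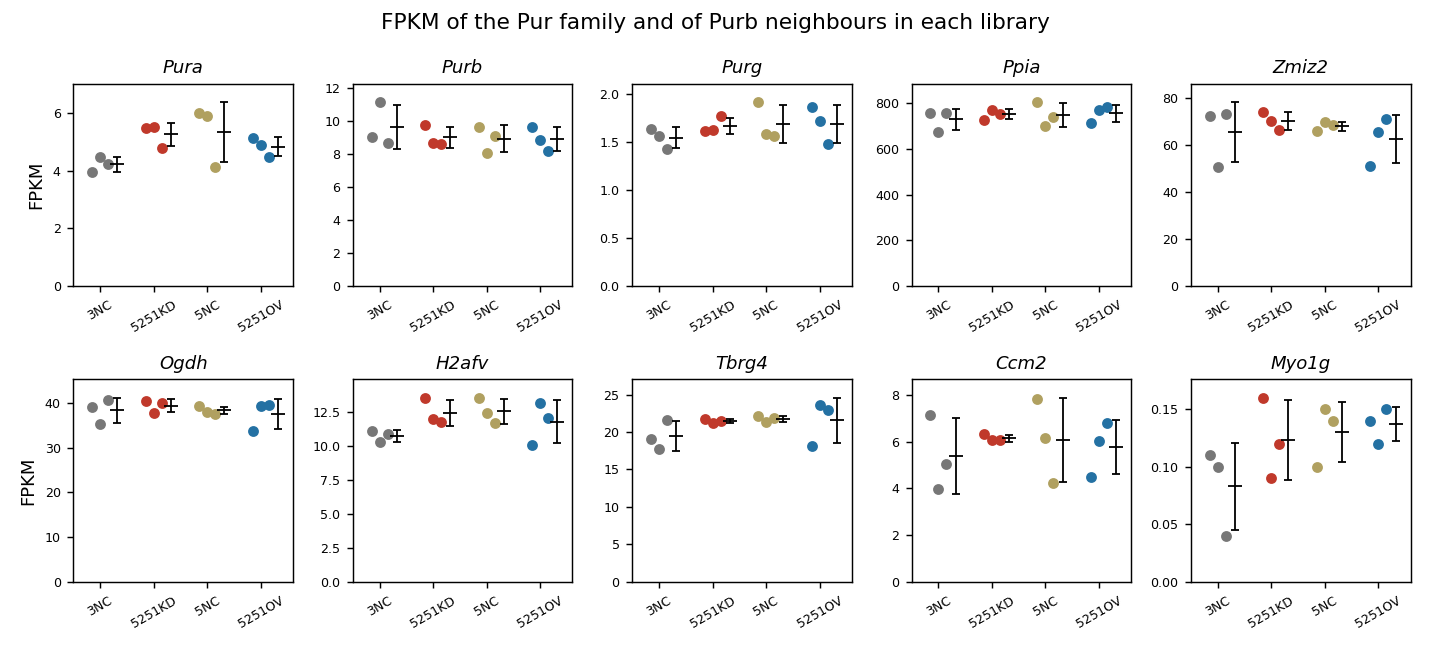
FPKM (vertical axis, from 0) of each of the 10 genes in the 12 libraries by group (F0_ left off); points are libraries in replicate order, and the bar beside them is the mean ± SD (n = 3). Most groups overlap; Pura is higher in every F0_5251KD library (4.81 to 5.52) than in every F0_3NC library (3.97 to 4.48), and H2afv is at 11.74 to 13.51 against 10.24 to 11.05.

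Whether the viruses altered Purb, the gene whose exon holds the target sites, was examined first. The Purb count was 1184, 1518 and 1118 in the F0_3NC libraries and 1253, 1123 and 1131 in the F0_5251KD libraries. It was 1248, 1035 and 1182 in F0_5NC and 1280, 1147 and 1087 in F0_5251OV. The highest of the 12 was F0_3NC replicate 2, and both pairs of groups overlapped. Per length, the LV3 groups had 9.62 ± 1.33 FPKM of Purb in F0_3NC and 9.0 ± 0.62 FPKM in F0_5251KD (SD, n = 3). The LV5 groups had 8.91 ± 0.83 FPKM in F0_5NC and 8.87 ± 0.73 FPKM in F0_5251OV (SD, n = 3). For Purb in F0_5251KD vs F0_3NC, edgeR gave a log2 fold change of -0.11 (SE 0.093, Benjamini-Hochberg adjusted p 0.897). Its 95% interval ran from 19.3% lower to 6.4% higher, or from -246 to 81 counts on the F0_3NC mean of 1273.3 counts. Without F0_3NC replicate 2 the log2 fold change was -0.003. In F0_5251OV vs F0_5NC it was 0.04 (SE 0.093, adjusted p 0.907), with an interval from 10.3% lower to 18.3% higher, or -120 to 211 counts on a mean of 1155.0. Its sign changed without F0_5251OV replicate 1 (-0.008). The controls F0_3NC and F0_5NC differed by 0.15 (SE 0.093, adjusted p 0.523), which fell to 0.04 without F0_3NC replicate 2. The effects of the knockdown and overexpression viruses on Purb differed by -0.15 (SE 0.131, adjusted p 0.633), and by 0.03 without both libraries that stood apart. A change in a transcript that contributes only a small part of the Purb count could not be detected within these intervals.

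Over all 10 genes the result was the same in kind. Myo1g did not pass the filter on low counts, and of the other 9 genes edgeR called 0 in F0_5251KD vs F0_3NC, where 0.0245% of the 16296 genes tested were called. It called 0 in F0_5251OV vs F0_5NC (0.0% of all genes), 0 in F0_3NC vs F0_5NC (0.331%) and 0 for the difference of effects (0.0%). At an unadjusted p under 0.05, 0 of the 9 genes passed in any of these comparisons, where 4.74%, 8.77%, 11.9% and 11.3% of all genes passed. DESeq2 and limma on log2(FPKM + 1) also called 0 of the 9. Of all 16296 genes, DESeq2 called 20, 28, 138 and 35 in these comparisons, and limma 2, 0, 42 and 1. In F0_5251KD vs F0_3NC, 7 of the 9 genes were higher and 2 lower (Purb and Purg), with a median log2 fold change of 0.08 and a range of -0.11 to 0.20, beside a median of -0.004 over all genes tested. Without F0_3NC replicate 2, 3 were higher and 6 lower. In F0_5251OV vs F0_5NC, 6 were higher and 3 lower, with a range of -0.07 to 0.05. This split turned with the scaling: by limma on log2(FPKM + 1), 1 was higher, 7 were lower and 1 was at 0, and in group means of CPM without TMM scaling 1 was higher and 8 were lower. In F0_3NC vs F0_5NC 4 were higher and 5 lower (range -0.19 to 0.15), and by limma on log2(FPKM + 1) 1 was higher, 7 were lower and 1 was at 0. The differences of effects lay between -0.15 and 0.24. The 95% intervals were narrowest for Ppia (-9.1% to 16.1% with knockdown and -8.3% to 17.2% with overexpression) and widest for Ccm2 (-20.5% to 59.8% and -30.2% to 40.1%), a gene of 112 to 210 counts.

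**Figure D2:**
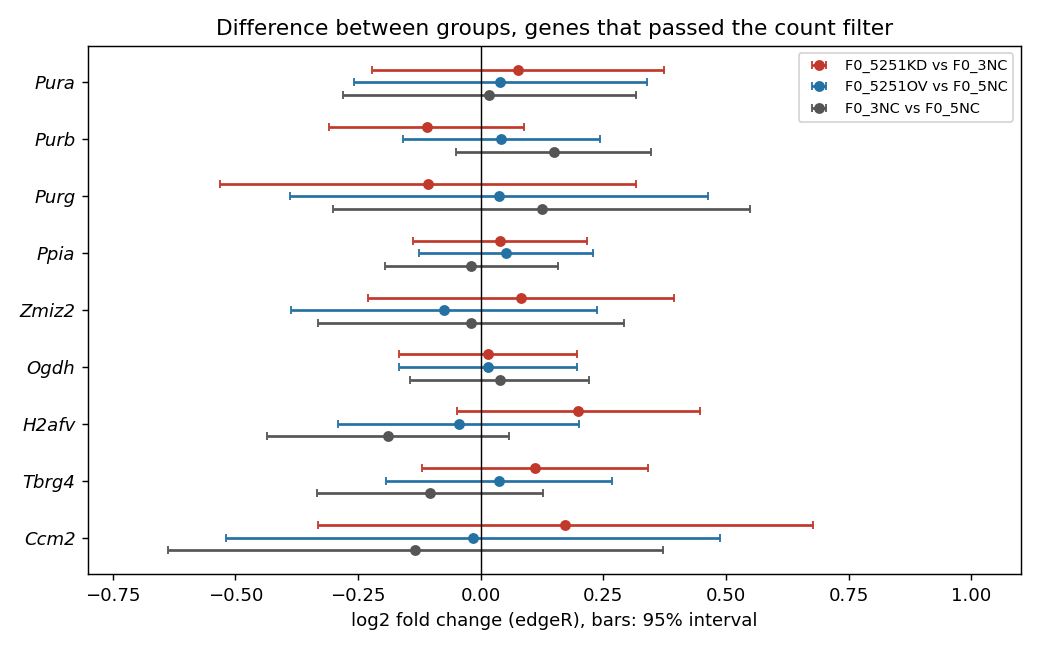
Log2 fold change by edgeR (horizontal axis) of the 9 genes that passed the count filter; points are estimates, bars 95% intervals, and colours the 3 comparisons. All intervals include 0, those of Ccm2 and Purg are the widest, and H2afv has the largest estimates (0.20 in F0_5251KD vs F0_3NC and -0.19 in F0_3NC vs F0_5NC).

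H2afv lies nearest to Purb, 23.1 kb away (chromosome 11, 6427226 to 6444511, minus strand), and had the largest log2 fold change of the 9 genes in the knockdown comparison. Its count was 259, 249 and 251 in F0_3NC and 313, 278 and 276 in F0_5251KD. It was 313, 287 and 273 in F0_5NC and 238, 305 and 289 in F0_5251OV. All F0_5251KD libraries were above all F0_3NC libraries in CPM, and F0_3NC was also below F0_5NC, so that F0_3NC had the lower values in both of these comparisons. The log2 fold change was 0.20 (SE 0.115, adjusted p 0.897 by edgeR) in F0_5251KD vs F0_3NC, -0.19 (SE 0.115, adjusted p 0.513) in F0_3NC vs F0_5NC and -0.05 (SE 0.114, adjusted p 0.921) in F0_5251OV vs F0_5NC. Of the 9 genes tested, H2afv alone had groups apart in CPM in the knockdown comparison, where 11.2% of all genes did, and alone in the comparison of the controls, where 16.7% did. None of the 9 had groups apart in F0_5251OV vs F0_5NC (13.5% of all genes).

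Pura gave different pictures as a count and as FPKM. The Pura count (chromosome 18, 36280560 to 36292535) was 299, 376 and 269 in F0_3NC and 342, 333 and 311 in F0_5251KD, and the groups overlapped (log2 fold change 0.08, SE 0.138, adjusted p 0.934 by edgeR). Its FPKM was 3.97, 4.48 and 4.23 in F0_3NC and 5.48, 5.52 and 4.81 in F0_5251KD, so the groups did not overlap. In FPKM, 2 of the 10 genes (Pura and H2afv) had groups apart in this comparison, where 10.9% of all genes tested did, 0 did in F0_5251OV vs F0_5NC (13.1%), and H2afv did in F0_3NC vs F0_5NC (15.9%). By limma on log2(FPKM + 1) the difference of Pura was 0.26 (adjusted p 0.901), and it was not called. In the overexpression arm Pura was at 6.0, 5.91 and 4.14 FPKM in F0_5NC and at 5.13, 4.91 and 4.5 FPKM in F0_5251OV. The counts of those libraries were 361, 307 and 270, then 377, 314 and 259. The log2 fold change in F0_5251OV vs F0_5NC was 0.04 (SE 0.138, adjusted p 0.944) from counts and -0.11 (adjusted p 0.807) from log2(FPKM + 1), and neither was called.

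A count and an FPKM together imply a transcript length, given the library total used here. How the authors set the length is not stated. For Purb this implied length was 8326 to 8357 bases in all 12 libraries, close to the 8319 bases of the GENCODE exon. RefSeq places the end of Purb at 6476076, beyond the 6475917 of GENCODE. The highest implied length of Purb was 1.004 times its lowest. Only 0.6% of 11981 well-measured genes (FPKM of at least 1 and at least 30 counts in each library) had a smaller ratio. For Pura it was 3363 to 5131 bases (ratio 1.526, above 99.8% of these genes), and for Purg 1506 to 2220 bases (1.474, above 99.7%), where the median gene had 1.026. RefSeq lists 3 transcripts of Pura, 8 of Purg and 1 of Purb. In F0_3NC the implied length of Pura was 4800, 5131 and 4116 bases and in F0_5251KD 4044, 3892 and 4104 bases. The F0_5251KD mean was 14.3% shorter, a difference larger in size than in 99.9% of the genes. For Purg it was 1904, 2220 and 2128 bases in F0_3NC and 1760, 1821 and 1829 bases in F0_5251KD, 13.5% shorter. Neither gene overlapped between the groups, nor did Tbrg4, so 3 of 9 genes had implied lengths apart, where 7.52% of the genes did. In F0_5251OV vs F0_5NC 0 of 9 did (5.56% of the genes). Between the controls 5 of 9 did, but so did 47.9% of all the genes, and Pura and Purg were not among the 5. Mean lengths of Pura and Purg still differed between the controls, longer in F0_3NC by 22.9% and 16.7%. These differences were larger in size than in 99.9% and 99.8% of the genes. In F0_5251OV vs F0_5NC Pura was 7.9% longer (larger in size than in 99.1%) and Purg 0.4% shorter. Differences of this size were thus not particular to the knockdown comparison. The implied length was not tested, since it is a result of the authors' estimation and not a measurement of its own.

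**Figure D3:**
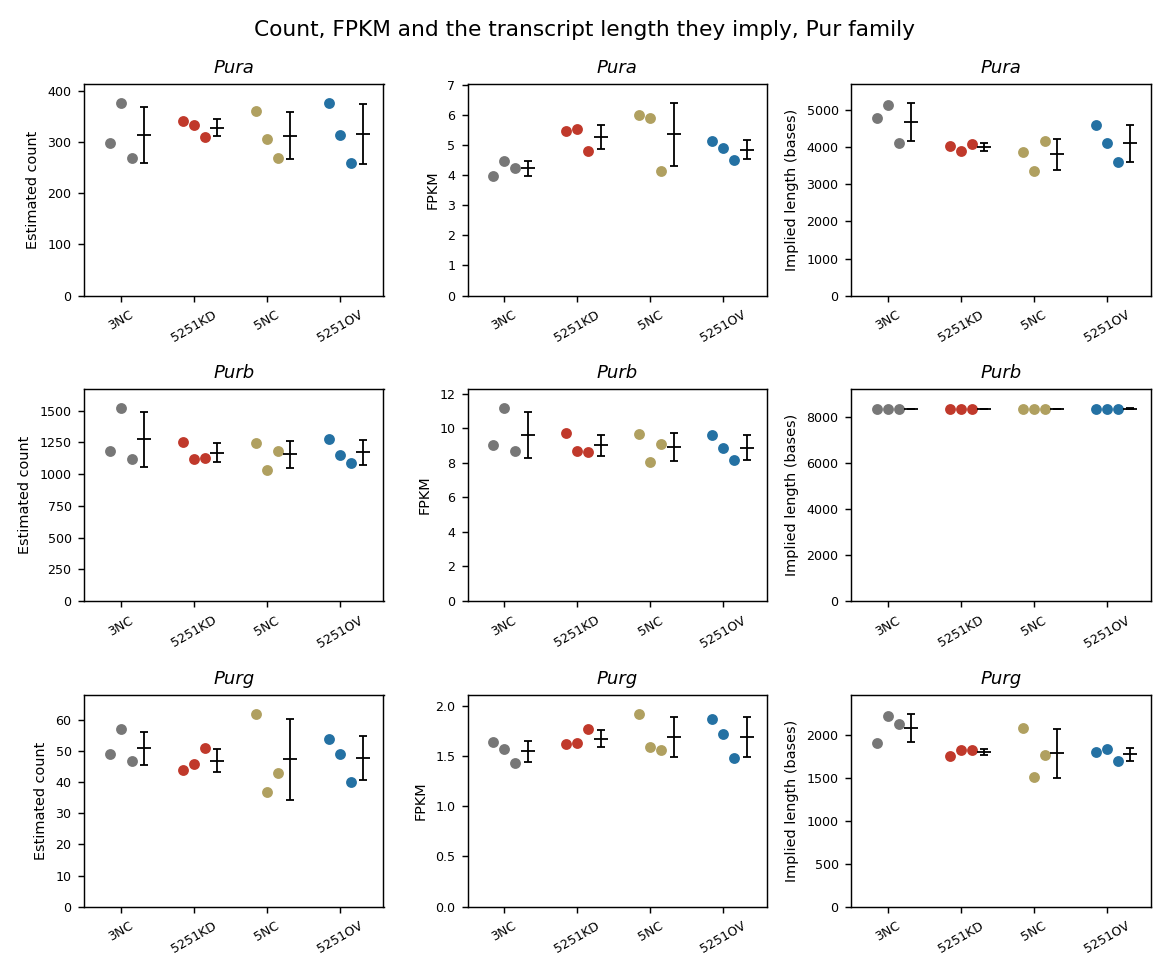
Estimated count, FPKM and the transcript length that they imply (bases), by group, for Pura, Purb and Purg; all axes start at 0, points are libraries and bars the mean ± SD (n = 3). The implied length of Purb is flat at 8326 to 8357 bases, while that of Pura ranges from 3363 to 5131 and that of Purg from 1506 to 2220.

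The ratio of Purb to Pura also differed between FPKM and counts. In FPKM it was 2.28, 2.49 and 2.05 in F0_3NC and 1.77, 1.57 and 1.79 in F0_5251KD. It was 1.61, 1.36 and 2.19 in F0_5NC and 1.87, 1.80 and 1.81 in F0_5251OV. F0_3NC was above F0_5251KD in every library, and overlapped F0_5NC. In counts, Pura took 18.1% to 22.3% and Purg 2.7% to 3.7% of the family's reads in each library, with Purb at 74.7% to 79.1%. Purg (chromosome 8, 33385619 to 33417472) had only 37 to 62 counts per library. With LV3 its count was 49, 57 and 47 in F0_3NC and 44, 46 and 51 in F0_5251KD. With LV5 it was 62, 37 and 43 in F0_5NC and 54, 49 and 40 in F0_5251OV. Both pairs of groups overlapped. The log2 fold change of Purg was -0.11 (SE 0.197) with knockdown and 0.04 (SE 0.198) with overexpression, and the first interval ran from 30.8% lower to 24.6% higher.

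The other neighbours differed in how much they varied between libraries. Zmiz2 (chromosome 11, 6388799 to 6406162) had 4540, 3329 and 4530 counts in F0_3NC and 4595, 4335 and 4191 in F0_5251KD. It had 4097, 4319 and 4288 counts in F0_5NC and 3286, 4062 and 4545 in F0_5251OV. F0_3NC replicate 2 and F0_5251OV replicate 1 were the lowest of the 12 and far below the rest of their groups. Ppia (6415867 to 6419817, chromosome 11) was between 6539 and 7668 counts in all libraries, the lowest again F0_3NC replicate 2, and its log2 fold change was 0.04 (SE 0.082) with knockdown and 0.05 (SE 0.082) with overexpression. Ogdh (6291597 to 6359094) was between 2215 and 2593 counts, with 0.02 (SE 0.084) and 0.01 (SE 0.084). It was the only one of the 10 genes whose estimated counts were not whole (in 12 of 12 libraries), so its reads may have been shared out between genes. Ppia has processed pseudogenes, and how reads that match several places were counted is not given, so its level is uncertain to that extent. Tbrg4 (6615598 to 6626084) had 726 to 931 counts and log2 fold changes of 0.11 (SE 0.107) and 0.04 (SE 0.107). Ccm2 (6546887 to 6596761) had 112 to 210 counts and log2 fold changes of 0.17 (SE 0.234) and -0.02 (SE 0.233). The first was -0.02 without F0_3NC replicate 2 and 0.43 without F0_3NC replicate 1. Myo1g (6506548 to 6520960) had 5, 5 and 2 counts in F0_3NC against 8, 4 and 6 in F0_5251KD. With LV5 it had 5, 7 and 7 counts in F0_5NC against 7, 6 and 7 in F0_5251OV. A difference was not detectable at this depth.

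The family and the neighbours moved in opposite directions over the libraries. In log2 CPM over the 12 libraries, which share these totals and scaling, the Pur genes correlated positively with each other (Pearson's r of 0.53 to 0.55 in 3 pairs) and so did the 6 neighbours (0.47 to 0.90 in 15 pairs). All 18 pairs of a Pur gene and a neighbour had a negative r (-0.77 to -0.17). The 2 libraries that stood apart carried much of this. They ranked in the top 3 of 12 for Pura, Purb and Purg and in the bottom 3 for all 6 neighbours. Over the other 10 libraries, r was 0.26 to 0.40 within the family, -0.30 to 0.70 between neighbours (10 of 15 positive) and -0.64 to 0.49 across (5 of 18 positive). These libraries belong to different groups and arms (F0_3NC and F0_5251OV), and of the 6 germ cell markers Ddx4, Sycp3 and Pgk2 were highest in them, while Prm1, Prm2 and Tnp1 ranked 8 to 12 of 12. The part of cell content in this pattern was not tested.

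The genes whose pattern over the 12 libraries was most like that of each Pur gene were named as a description, among 15164 genes. For Purb they were Ythdf3, a reader of methylated RNA (r = 0.955), Ccnl2, a cyclin (0.933), and Abhd13 (0.932). For Pura they were 2810021J22Rik (0.913), Cpne3 (0.889) and Chordc1 (0.884), and for Purg Tmem5 (0.90), Abhd10 (0.896) and Zcchc9 (0.891). Ythdf3 was highest on average in F0_3NC (48.51 ± 7.42 CPM, SD, n = 3), as was Purb (80.21 ± 11.02 CPM), and was at 44.99 ± 1.73 CPM in F0_5251KD. Both F0_3NC means were raised by replicate 2 (Ythdf3 56.92 CPM, against 45.69 and 42.92 CPM in replicates 1 and 3). For Purb these values were 92.81 CPM, against 75.45 and 72.37 CPM. Without the 2 libraries that stood apart, r was 0.866, 0.879 and 0.819 for the genes of Purb, 0.817 to 0.868 for those of Pura and 0.878 to 0.893 for those of Purg.

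The wider locus was described next, since an effect of the virus on the region would touch more than the chosen genes. The table held 32 other genes within 1 Mb of Purb (25 beyond the 7 chosen neighbours), and 28 passed the count filter. edgeR called 0 of them in each of the 3 comparisons between groups, where 0.0245%, 0.0% and 0.331% of all genes tested were called. With knockdown 17 of the 28 were higher and 11 lower, with a median log2 fold change of 0.03. With overexpression 11 were higher and 17 lower (median -0.04), and between the controls 6 were higher and 22 lower in F0_3NC (median -0.12). The median over all genes tested was between -0.004 and 0.0 in these comparisons. How these splits depend on the scaling or on F0_3NC replicate 2 was not examined for the 28 genes. Groups were apart in CPM for 2 of the 28 with knockdown (11.2% of all genes), 3 with overexpression (13.5%) and 9 between the controls (16.7%), 8 of these lower in F0_3NC. At an unadjusted p under 0.05 there were 1, 3 and 4 genes of the 28, beside 4.74%, 8.77% and 11.9% of all genes. Within 0.5 Mb 15 genes passed the filter and 0 were called, with medians of 0.04, -0.03 and -0.13.

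**Figure D4:**
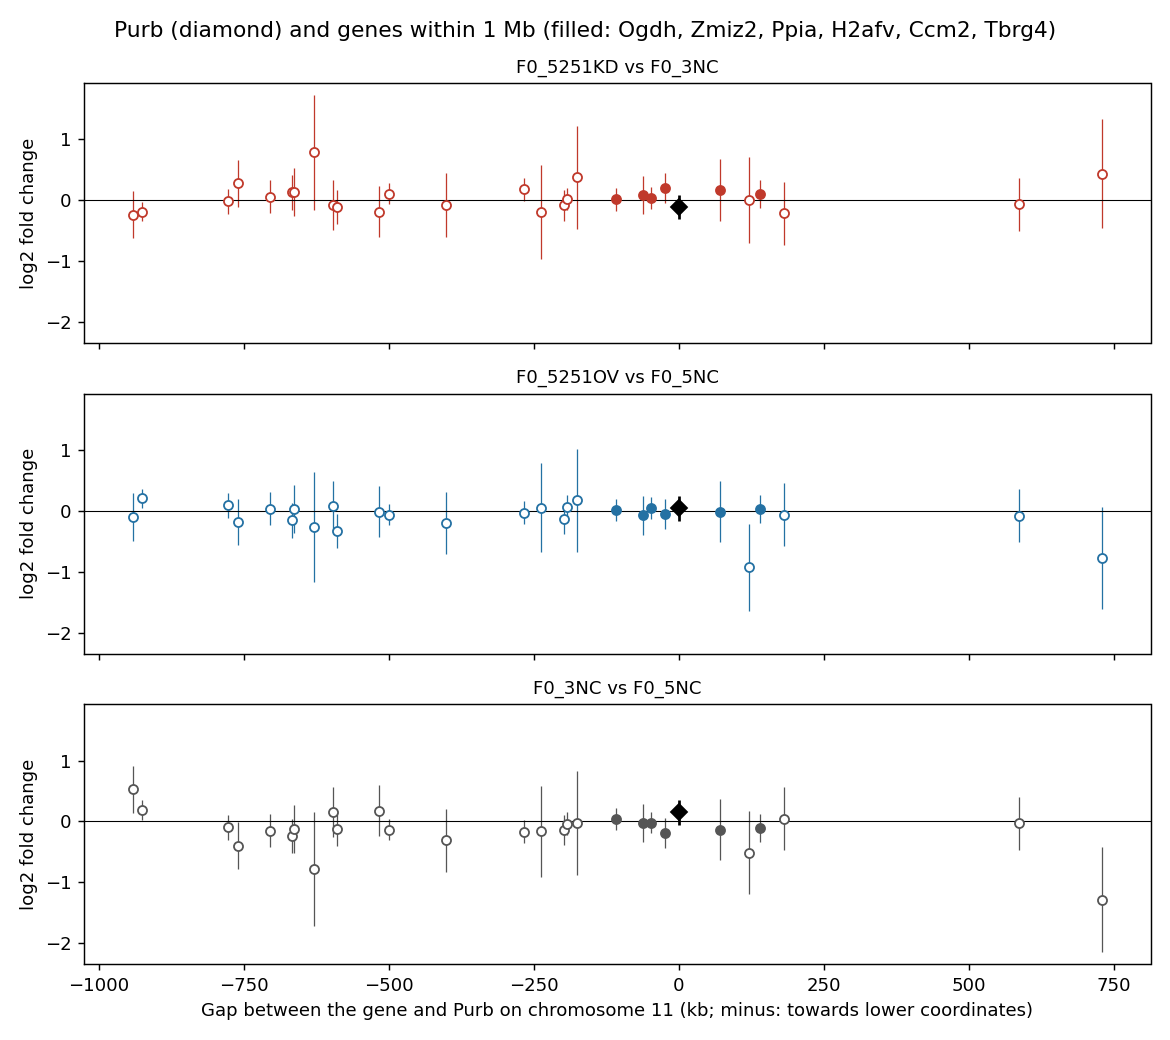
Log2 fold change by edgeR (vertical axis, bars 95% intervals) against the gap to Purb in kb on chromosome 11, for Purb (diamond) and the 28 tested genes within 1 Mb, in 3 comparisons. Filled points are the chosen neighbours; none of the genes passed the threshold, and the points farthest from 0 are genes of low count such as Igfbp3 (-1.29 between the controls, and -0.56 without F0_5NC replicate 1).

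Among the genes of the locus that were not chosen neighbours and had a mean of at least 1 CPM, Polm, DNA polymerase mu, had the largest rise with knockdown (log2 fold change 0.79, SE 0.436, adjusted p 0.897 by edgeR), at 1.22 ± 0.50 CPM against 0.70 ± 0.17 CPM. Xbp1, a transcription factor of the unfolded protein response 941.6 kb away, had the largest fall (-0.23, SE 0.178, adjusted p 0.897), which was -0.07 without F0_5251KD replicate 2 and -0.39 without F0_5251KD replicate 1. The same gene had the largest rise in F0_3NC vs F0_5NC (0.53, SE 0.179, adjusted p 0.316), at 17.4 ± 2.04 and 12.48 ± 3.38 CPM. With overexpression, Ccdc117 had the largest rise (0.21, SE 0.075, adjusted p 0.552), at 135.9 ± 11.84 CPM against 121.77 ± 2.13 CPM, with groups apart. Igfbp3, a binding protein of insulin-like growth factors 730.0 kb away, had the largest fall with overexpression (-0.77, SE 0.388, adjusted p 0.58) and between the controls (-1.29, SE 0.401, adjusted p 0.291). Its level in F0_5NC was 6.49 ± 4.82 CPM, and without F0_5NC replicate 1 the value was -0.04 with overexpression and -0.56 between the controls. That library also had the highest Leydig and Sertoli cell marker sums of the 12 (2266.95 and 1181.97 CPM), and their part in the Igfbp3 value was not tested. Nacad, 121.7 kb away and below that mean level, averaged 0.67 CPM with overexpression against 1.33 CPM in its control, with groups apart (log2 fold change -0.93, SE 0.33, adjusted p 0.551). None of these genes passed the threshold.

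Partners and targets of Pur proteins were examined as a list of 28 genes, all of which passed the filter. With knockdown 13 were higher, 15 were lower and 0 were called, with a median log2 fold change of -0.02. With overexpression 13 were higher, 15 lower and 0 called (median -0.02). Between the controls 14 were higher and 14 lower (median 0.02), and 1 was called. Of all genes tested, 0.0245%, 0.0% and 0.331% were called in these comparisons. At an unadjusted p under 0.05 by edgeR there were 1, 4 and 3 genes of the 28, beside 4.74%, 8.77% and 11.9% of all genes. Groups were apart in CPM for 4 genes (14.3%) in each of the 3 comparisons, beside 11.2%, 13.5% and 16.7% of all genes. Of the 9 DNA- and RNA-binding partners, Ybx1, the Y-box protein, had log2 fold changes of -0.02 (SE 0.068) with knockdown and 0.10 (SE 0.068) with overexpression, and the germ cell form Ybx2 of 0.14 (SE 0.155) and -0.09 (SE 0.155). Smad3, a mediator of TGF-beta signals, had the lowest value of the 9 with overexpression (-0.38, SE 0.159, adjusted p 0.552 by edgeR), with groups apart. Its value was 0.21 (SE 0.159) with knockdown and 0.59 (SE 0.224, adjusted p 0.42) for the difference of effects. Of the 7 RNA transport proteins, which include Fmr1, the Staufen proteins and the kinesins Kif5a, Kif5b and Kif5c, 1 was higher and 6 lower with knockdown (-0.27 to 0.01), and 4 were higher and 3 lower with overexpression (-0.12 to 0.14). Of the 5 cell cycle and elongation partners, none had an unadjusted p under 0.05 by edgeR in the knockdown, overexpression or control comparison. For the difference of effects 1 did, Cdk9 (log2 difference 0.36, SE 0.158, adjusted p 0.428), beside 11.3% of all genes.

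The 7 genes whose promoters or RNA Pur proteins bind varied more. Myc, a growth-promoting transcription factor, had 76, 81 and 64 counts in F0_3NC and 48, 36 and 32 in F0_5251KD. It had 6, 5 and 10 counts in F0_5NC and 6, 6 and 6 in F0_5251OV. Both LV3 groups were thus above both LV5 groups in every library. Myc was the one gene of the list that passed the threshold, in F0_3NC vs F0_5NC, where its log2 fold change was 3.38 (SE 0.275, edgeR adjusted p 4.56e-05), at 4.65 ± 0.44 and 0.45 ± 0.17 CPM. In F0_5251KD vs F0_3NC it had the smallest unadjusted p of the list (0.0011 by edgeR, adjusted p 0.666). Its log2 fold change there was -0.92 (SE 0.222), and it was lower in all 3 libraries. Over the alternatives the adjusted p of this difference was between 0.0858 and 1.0. The 4 immediate early genes checked with the markers (Fos, Egr1, Btg2 and Zfp36) summed to 82.6 to 94.58 CPM in F0_3NC and to 177.72 to 222.42 CPM in F0_5251KD. With LV5 they summed to 12.37 to 19.57 CPM in F0_5NC and to 11.13 to 12.98 CPM in F0_5251OV. They differed between the backbones as Myc did, and between F0_5251KD and F0_3NC in the opposite direction, and their part in the Myc value was not tested. The labels name no collection or sequencing batch, so an effect of the backbone and one of a batch shared with it cannot be told apart.

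Smooth muscle genes are the classical targets of Pur-alpha and Pur-beta. Myh11, smooth muscle myosin heavy chain, had 587, 455 and 457 counts in F0_5NC and 346, 343 and 367 in F0_5251OV. It had 462, 414 and 388 counts in F0_3NC and 431, 473 and 462 in F0_5251KD. All F0_5251OV libraries were below all F0_5NC libraries, while the LV3 groups overlapped. In F0_5251OV vs F0_5NC, Myh11 had the smallest unadjusted p of the list (0.000422), with a log2 fold change of -0.48 (SE 0.103) and an adjusted p of 0.397 by edgeR, and of 0.0263 by DESeq2, the only alternative that called it. Its adjusted p over the alternatives was 0.0263 to 0.987. Values for Tagln and Acta2 in that comparison were -0.55 (SE 0.143, adjusted p 0.495) and -0.36 (SE 0.131, adjusted p 0.552). With knockdown the values were 0.12 (SE 0.103) for Myh11, 0.03 (SE 0.135) for Tagln and 0.22 (SE 0.131) for Acta2. The cardiac genes of the list had larger standard errors. With overexpression Myh6 was at -0.10 (SE 0.327) and Myh7 at 0.24 (SE 0.487), and with knockdown at 0.68 (SE 0.326) and 0.73 (SE 0.48). The overexpression intervals of Myh6 (-0.81 to 0.60) and Myh7 (-0.81 to 1.29) included the values of Myh11, Tagln and Acta2. A different response of the cardiac genes was therefore not shown. With knockdown the smooth muscle and cardiac values were all positive. Between the controls Tagln was higher in F0_3NC (0.42, SE 0.137) with groups apart, while Myh11 (-0.23, SE 0.102) and Acta2 (-0.20, SE 0.131) were lower. The difference of effects for Myh11 was 0.60 (SE 0.145, adjusted p 0.352). The 3 smooth muscle markers, of which 2 (Acta2 and Myh11) are in the list, summed to 66.41 to 87.42 CPM in F0_5NC and 50.57 to 59.63 CPM in F0_5251OV. Sertoli cell markers, which hold no Pur target of the list, summed to 738.2 to 1181.97 CPM and 550.48 to 709.54 CPM in these groups. Most of that sum was Clu (696.77 to 1119.73 against 512.53 to 675.08 CPM). Sox9 and Amh were also apart, and Wt1 overlapped. Macrophage sums were also apart (18.65 to 32.73 against 15.98 to 17.75 CPM), but only Csf1r was apart by itself, while Adgre1 and Cd68 overlapped. The sums of endothelial (7.45 to 11.56 against 5.76 to 7.62 CPM) and Leydig cell markers (1219.5 to 2266.95 against 958.8 to 1330.3 CPM) overlapped. The part of these cell types in the Myh11 value was not tested.

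**Figure D5:**
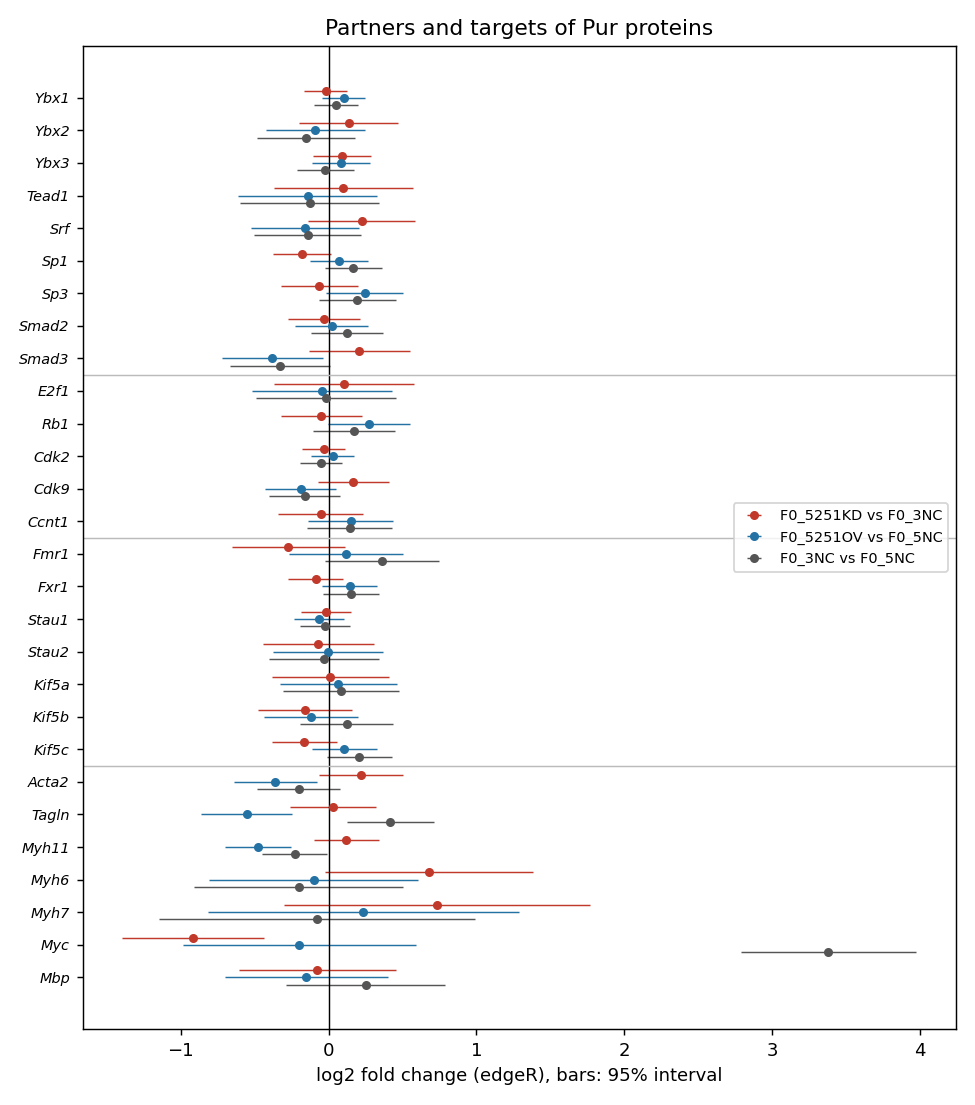
Log2 fold change by edgeR (horizontal axis, bars 95% intervals) of the 28 partner and target genes in 3 comparisons (colours); grey lines separate DNA- and RNA-binding partners, cell cycle and elongation partners, RNA transport proteins, and bound genes. Most points lie near 0, and Myc stands at 3.38 in F0_3NC vs F0_5NC, the one value past the threshold.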

How the data were processed

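Testis RNA of 12 libraries was enriched with oligo(dT) beads, reverse transcribed with random hexamers and sequenced on an Illumina instrument. Per the methods of the study, reads were aligned with SOAPaligner (v. 2.20), and per the labels the build was mm10. No source used here names the program behind the values. The authors deposited an estimated count (expected count) per gene and library, of which 12.0% were not whole (tolerance 1e-06), and FPKM values deposited by the authors beside it. A further 18 columns of the table belong to none of the 12 samples and were left out.

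Counts were rounded, filtered with filterByExpr and scaled by TMM, then tested (two-sided) with the quasi-likelihood F test of edgeR 4.0.16 under R 4.3.3. A single fit took all 12 libraries in 4 groups and left 8 residual degrees of freedom. Benjamini-Hochberg adjustment ran over 16296 genes, with a threshold of 0.05. The model was tested on simulated data. Coordinates came from RefSeq (GRCm38.p6), where 20564 genes of the table (99.3%) were found by their ID. Knockdown sequences came from the study's supplement and were searched in GENCODE transcripts. No table of protein sequences was at hand.

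The genes and lists were chosen with earlier results of these data known. All 10 genes were named. Of the other genes within 1 Mb, the largest rise and fall per comparison at a mean of at least 1 CPM were named, with any past the threshold. Of the partner list, the smallest p per comparison and any past the threshold were named. Nacad, Tagln, Acta2, Myh6, Myh7, Smad3 and Cdk9 were added after their values were seen, as were Ybx1, Ybx2 and the members given for roles. For each Pur gene, 3 genes with the highest correlation were named. The tests were repeated with upper-quartile scaling, DESeq2 1.42.0, no filter, at least 1 CPM in 3 libraries, limma 3.58.1 on log2(FPKM + 1) and on log2(FPKM + 0.1), the compared groups alone, the replicate block, each library left out and stricter thresholds. Leaving out both libraries that stood apart was added after seeing the data.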

Additional observations from a re-analysis of the deposited data

How the results depend on the processing

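No member of the Pur family and no neighbour was called under any alternative run, and the count of 0 genes within 1 Mb of Purb was the same in each. The differences of these genes were near 0, so 68 of the values under the alternatives had the other sign, none of them past the threshold. For Purb, the log2 fold change with overexpression was -0.005 by limma on log2(FPKM + 1) and -0.005 on log2(FPKM + 0.1). Leaving out both libraries that stood apart gave Purb 0.008 with knockdown, -0.022 with overexpression and 0.030 for the difference of effects. In F0_5251KD vs F0_3NC the same alternative gave Ppia -0.019, Zmiz2 -0.066, Ogdh -0.040 and Ccm2 -0.005. In F0_5251OV vs F0_5NC it gave Pura -0.098, Purg -0.057, H2afv 0.055, Zmiz2 0.045 and Ccm2 0.132. In F0_3NC vs F0_5NC it gave Pura -0.107, Ppia 0.036, Zmiz2 0.126 and Ccm2 0.039. By limma on log2(FPKM + 1) and log2(FPKM + 0.1), Purg was 0.070 and 0.108 with knockdown. With overexpression Pura was -0.106 and -0.122, Purg 0.000 and 0.000, Ogdh -0.033 and -0.034 and Tbrg4 -0.024 and -0.026. Between the controls Pura was -0.268 and -0.315, Purg -0.077 and -0.117 and Ogdh 0.000 and 0.000. Upper-quartile scaling gave Ogdh -0.006 with overexpression. The cause of these changes of sign was not tested.

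With 1 library left out at a time, the ranges that held both signs were as follows. With knockdown they were 0.000 to 0.186 for Pura, -0.031 to 0.078 for Ppia, -0.078 to 0.180 for Zmiz2, -0.052 to 0.067 for Ogdh and -0.016 to 0.434 for Ccm2. With overexpression they were -0.084 to 0.160 for Pura, -0.008 to 0.088 for Purb, -0.084 to 0.232 for Purg, -0.132 to 0.068 for H2afv, -0.189 to 0.058 for Zmiz2, -0.039 to 0.093 for Ogdh, -0.202 to 0.154 for Ccm2 and -0.033 to 0.157 for Tbrg4. Between the controls they were -0.089 to 0.095 for Pura, -0.057 to 0.054 for Ppia, -0.117 to 0.144 for Zmiz2, -0.013 to 0.109 for Ogdh and -0.392 to 0.057 for Ccm2.

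DESeq2 called 1 of the 28 partner and target genes with overexpression, Myh11 (-0.485), where edgeR called 0. Of all 16296 genes tested, DESeq2 called 28 in that comparison and edgeR 0. The call of Myc between the controls held in each alternative, with an adjusted p of at most 0.00168. Fits with the replicate block changed no call. They gave Ccm2 0.005 with overexpression. Samples with the same number did not deviate together (correlations of -0.193 to 0.092 over all genes), so the numbers were not taken to pair samples. Depth limited Myo1g, with 2 to 8 counts, and Purg, with 37 to 62.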

Other observations

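The implied transcript length, the value that ties a count to its FPKM, differed between the LV3 and LV5 controls far beyond Pura and Purg. Of 11981 well-measured genes, 5737 had implied lengths that did not overlap between F0_3NC and F0_5NC, against 901 in F0_5251KD vs F0_3NC and 666 in F0_5251OV vs F0_5NC. The chosen neighbours H2afv, Ppia and Zmiz2 were shorter in F0_3NC and Tbrg4 was longer, each by a small step (H2afv 1492.33 ± 4.73 against 1499.33 ± 1.53 bases, SD, n = 3). The 3 groups other than F0_3NC had mean implied lengths of Pura of 4013.33, 3809.0 and 4109.0 bases, and F0_3NC had 4682.33 bases. The cause was not tested.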
